A study of Mus musculus with 41 samples.

Results

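In cultured keratinocytes without doxycycline (DOX), the MYC-tag antibody gave 2242 peaks, and 521 of them (23.2%) were overlapped by at least 1 bp by a peak from cells that expressed SOX9 without its HMG domain. They were chosen by this overlap alone and are called background sites here, because the tagged transgene was not induced in the first condition and its DNA-binding domain was missing in the second. They are not called sites without SOX9 binding, since 226 of them also had a peak with WT-SOX9 and 343 had a SOX9 peak in skin after 1 week of induction. The other 1721 peaks of the no-DOX list serve as the comparison. Both lists were limited by maximum signal, so the no-DOX and dHMG-SOX9 values of the sites are a description, with no test.

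CUT&RUN tethers a nuclease to an antibody in permeabilized nuclei, so that DNA near the antibody is cut out and sequenced. Nuclease that is not held at the antigen can also cut, most easily in open chromatin such as active promoters, and sequences present in many genomic copies collect reads from all of them. The MYC tag is a short piece of the MYC protein, a bHLH transcription factor that binds the E-box CACGTG with MAX. The HMG domain is the part of SOX9 that binds DNA, SOX9 is a transcription factor of hair follicle stem cells, and MLL3/4 are the methyltransferases that place H3K4me1 at enhancers.

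The series followed SOX9 binding and MLL3/4 in epidermal stem cells that were switched towards a hair follicle fate. The cultured cells were keratinocytes from newborn male CD1 back skin that carried K14rtTA, in which the keratin 14 promoter drives the DOX-dependent activator. Each line also carried a TRE transgene for MYC-tagged WT-SOX9, for SOX9 without the HMG domain (dHMG-SOX9) or for SOX9 without the transactivation domain (dTA-SOX9), and the no-DOX cells carried the WT-SOX9 transgene uninduced. DOX was given at 1 µg/ml, and its duration is not in the labels. In vivo lists came from sorted epidermal stem cells at D0 (age 21 days), W1 (28 days), W2 (35 days), W6 (63 days) and W12 of induction, the last from grafts. The genotype was K14rtTA with TRE-myc-Sox9 (male, CD1) at every time point, D0 included. Each list pooled 2 samples, so no comparison between conditions has a replicate test. The labels of the MLL3/4 samples of WT-SOX9 cells with DOX number them 1 and 2 in the titles, but both descriptions give replicate 2. At promoters of the keratinocyte genes checked, no-DOX MLL3/4 peaks were present at Krt5 and Krt14 (2 of 4), and at 0 of 4 fibroblast, 0 of 3 leukocyte and 1 of 3 endothelial genes (Pecam1). Over all 21992 protein-coding genes 5116 had one, so these short lists say little.

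The sequences below, from GRCm38 (mm10) on the plus strand, stand for the kinds of site that are described in turn. The first pair shows the borders between exon (capitals) and intron at which the Sox9 sites stopped or began. In the next 3 the capitals mark the 40-base word with the most copies in the genome. In the chromosome 1 site the capitals mark all bases except the 9 that are common to every 40-base word not found in the mitochondrial sequence.
Sox9 end of coding exon 1 (chr11:112782986-112783045): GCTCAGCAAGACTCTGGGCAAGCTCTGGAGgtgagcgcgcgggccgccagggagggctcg
Sox9 start of coding exon 2 (chr11:112783779-112783838): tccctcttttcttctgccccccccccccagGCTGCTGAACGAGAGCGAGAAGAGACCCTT
chromosome 9 tandem repeat site (chr9:3023473-3023572): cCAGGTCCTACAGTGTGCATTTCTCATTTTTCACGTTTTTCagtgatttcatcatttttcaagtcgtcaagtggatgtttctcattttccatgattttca
chromosome 12 repeat site (chr12:3109871-3110125): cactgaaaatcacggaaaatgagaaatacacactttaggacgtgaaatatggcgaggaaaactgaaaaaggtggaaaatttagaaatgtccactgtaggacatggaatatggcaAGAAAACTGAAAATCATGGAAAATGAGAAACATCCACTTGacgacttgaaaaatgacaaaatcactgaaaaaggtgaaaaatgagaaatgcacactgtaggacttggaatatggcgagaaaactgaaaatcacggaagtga
Tgfbr1 intron repeat site (chr4:47390822-47390975): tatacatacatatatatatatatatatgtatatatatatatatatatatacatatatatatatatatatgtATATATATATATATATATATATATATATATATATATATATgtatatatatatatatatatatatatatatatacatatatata
chromosome 1 site with mitochondrial words (chr1:24612647-24612854): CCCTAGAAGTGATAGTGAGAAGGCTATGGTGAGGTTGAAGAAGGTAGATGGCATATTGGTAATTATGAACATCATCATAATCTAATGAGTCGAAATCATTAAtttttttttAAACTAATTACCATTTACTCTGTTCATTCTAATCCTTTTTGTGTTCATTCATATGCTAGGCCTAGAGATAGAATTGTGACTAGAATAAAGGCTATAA
The following windows of 50 bp to each side of the maximum stand for promoter sites (Hist1h2bj, Cct7, Upf1) and distal sites (Eif2ak3, Elk4, Dusp4), with the words described further on in capitals. Apart from Hist1h2bj they were chosen after their values were seen.
Hist1h2bj promoter site (chr13:22043055-22043155): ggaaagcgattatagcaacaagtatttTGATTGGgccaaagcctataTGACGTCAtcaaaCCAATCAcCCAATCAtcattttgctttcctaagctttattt
Cct7 promoter site (chr6:85451342-85451442): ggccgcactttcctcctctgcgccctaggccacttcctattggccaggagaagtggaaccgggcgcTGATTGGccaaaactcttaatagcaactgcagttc
Upf1 promoter site (chr8:70353390-70353490): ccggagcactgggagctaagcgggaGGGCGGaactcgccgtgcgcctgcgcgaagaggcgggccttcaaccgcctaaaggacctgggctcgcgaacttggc
Eif2ak3 distal site (chr6:70872277-70872377): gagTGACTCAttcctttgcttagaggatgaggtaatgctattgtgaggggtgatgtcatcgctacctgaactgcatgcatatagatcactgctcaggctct
Elk4 distal site (chr1:132010807-132010907): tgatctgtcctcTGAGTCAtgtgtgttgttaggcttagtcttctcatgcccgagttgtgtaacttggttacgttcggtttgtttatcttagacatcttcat
Dusp4 distal site (chr8:34622889-34622989): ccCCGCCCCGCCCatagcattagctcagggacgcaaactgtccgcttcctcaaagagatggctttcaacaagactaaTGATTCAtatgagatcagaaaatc

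The background sites were wider and higher than the rest of the no-DOX list. A wider peak meets the overlap rule more easily, so the width is a description too, with no test. Their median width was 174 bp (range 62 to 1722) against 114 bp (54 to 562) for the other peaks. Their median maximum was 2429 RPKM (range 1822 to 722379) against 2024 RPKM (1822 to 8299), where RPKM is coverage scaled to the sequencing depth. Above 3600 RPKM lay 101 background sites (19.4%) and 27 other peaks (1.57%). The maxima rose in steps of 202 RPKM, which is taken as 1 fragment, so that the weakest peaks rested on 9 overlapping fragments and the median background site on 12. One step was 248 RPKM in the dHMG-SOX9 list, 164 in the WT-SOX9 list and 205 in the dTA-SOX9 list. The signal was very uneven. The 5 background sites of highest total signal held 51.0% of the total of all 521, and the first 20 held 65.9%. Together the background sites took 60.3% of the signal of the whole no-DOX list and 33.1% of its covered bases. In the list of replicate 1 alone, 503 background sites (96.5%) and 1480 other peaks (86.0%) were also present. That replicate is part of the pool, and its list has no limit at 1800 RPKM (6707 peaks, the weakest at 2 steps of 395 RPKM), so it is no independent check.

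At the median site the dHMG-SOX9 maximum was 1.06 times the no-DOX maximum (range 0.396 to 2.67). Where WT-SOX9 had a peak too (226 sites), its median ratio to no DOX was 0.916 (0.319 to 3.65). Where dTA-SOX9 had one (245 sites), its median ratio was 1.35 (0.389 to 12.6). These ratios cover only sites at which the other list also passed the signal limit, and therefore leave out the low values.

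**Figure D1:**
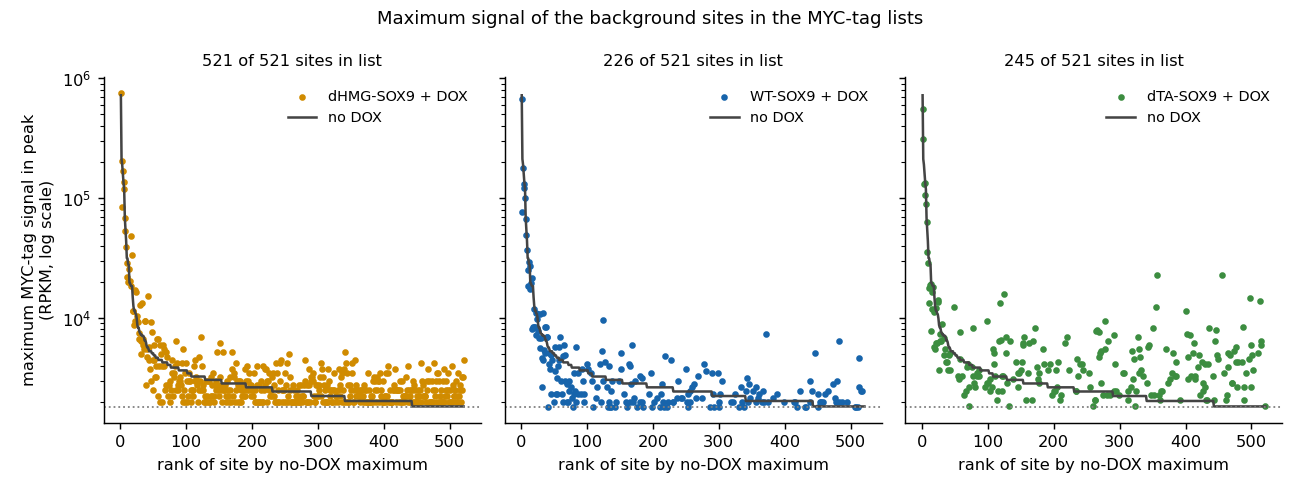
Maximum MYC-tag signal (RPKM, log scale) of the 521 background sites ordered by their no-DOX maximum (dark line), with points for the dHMG-SOX9, WT-SOX9 and dTA-SOX9 lists and a dotted line at 1800 RPKM, the limit the authors set. The second highest site has its dHMG-SOX9 and WT-SOX9 points below the line and its dTA-SOX9 point above it, the 245 dTA-SOX9 points scatter mostly above the line among low sites, and a site without a peak in a list has no point.

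Most background sites were at promoters. Within 1 kb of an annotated transcription start lay 316 of 521 (60.7%, 95% Wilson interval 56.4 to 64.8), against 634 of 1721 other peaks (36.8%) and 42.4% of the whole no-DOX list. The difference was 23.8 percentage points (95% Newcombe interval 19.0 to 28.5). It was present among narrow, middle and wide peaks, at 23.6, 16.4 and 17.1 points, and at each level of peak height, at 22.9 points among peaks of 9 fragments, 24.2 at 10 or 11 and 14.8 at 12 or more. Introns held 19.0% of the background sites against 31.4% of the other peaks, and intergenic sequence held 15.9% against 29.2%. As a reference for SOX9-dependent peaks, 6081 WT-SOX9 peaks that neither the no-DOX nor the dHMG-SOX9 list overlapped had a promoter share of 11.5%. All intervals cover counting error over sites only.

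Single promoters show the levels. BC030867 had 5667 RPKM without DOX, 4708 with dHMG-SOX9, 1806 with WT-SOX9 and 4923 with dTA-SOX9. Cct7, a subunit of the chaperonin that folds actin and tubulin, had 5060, 4461 and 1970 RPKM in the first 3 of these lists and no dTA-SOX9 peak. Upf1, the helicase of nonsense-mediated decay, had 4453, 1982 and 1970 RPKM and no dTA-SOX9 peak. Egr1, an immediate early transcription factor gene, had 4858, 5947 and 5746 RPKM and no dTA-SOX9 peak. Other high promoters had neither a WT-SOX9 nor a dTA-SOX9 peak, such as Ptk2, a focal adhesion kinase (4453 RPKM without DOX and 1982 with dHMG-SOX9), and Twf1, an actin-binding protein (4250 and 2478 RPKM). The no-DOX and dHMG-SOX9 peaks are there by the choice of the sites. Except for Egr1, these promoters were chosen after their values were seen.

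Repeated sequence was found at a minority of sites, several of the highest among them. A site is called multi-copy when at least 50% of its 40-base words occur elsewhere in the genome. This was so at 62 background sites (11.9%, 9.39 to 15.0), 51 other peaks (2.96%), 5.04% of the whole list and 21 WT-SOX9-only peaks (0.345%). The difference from the other no-DOX peaks was 8.94 points (6.27 to 12.1). It was 21.8 points among narrow peaks (24.3% of 74 sites against 2.51%), 6.70 among middle ones (9.15% against 2.46%) and 5.78 among wide ones (10.2% against 4.39%). Bases that the genome file marks as repeats made up at least 50% of 11.3% of the background sites and of 13.8% of the other peaks, a difference of -2.45 points whose interval includes 0 (-5.43 to 0.937). Outside the blocks of neighbouring sites that are described next the share was 4.61%, a difference of -9.16 points (-11.5 to -6.31). The other no-DOX peaks inside the blocks were kept in this comparison, so its sides are not alike.

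Many of the multi-copy sites lay close together. Grouping background sites within 50 kb of each other gave 5 blocks of at least 4 sites, a grouping chosen after the data were seen, with 87 sites and 33.2% of the signal of the no-DOX list. Not all of these were multi-copy. The multi-copy sites were 27 of 49 on chromosome 11, 10 of 20 on chromosome 9 and 3 of 9 on chromosome 14. On chromosomes 17 and 2 they were 1 of 5 and 1 of 4. Outside the blocks 4.61% of 434 sites were multi-copy, and the difference from the other no-DOX peaks was then 1.64 points (-0.202 to 4.15). Here and in what follows, only background sites were taken out with the blocks. The other no-DOX peaks inside the blocks stayed in the comparison, so its sides are not alike. The block at Sfi1 on chromosome 11 (3136452 to 3199054) held 49 sites and 32 other no-DOX peaks, with maxima from 1822 to 5060 RPKM. Sfi1 codes for a centrosome protein. This block made up most of the 91 background sites on chromosome 11, which held 17.5% of all sites but 9.68% of those outside blocks. The chromosome 9 block (3000003 to 3038255) held 20 sites and 10 other no-DOX peaks. Of these sites 14 were tandem repeats, and the commonest period in the block was 234 bp, the unit length of the mouse major satellite. A site counted as a tandem repeat when at least 70% of bases matched at the best period, in a fixed window around its maximum. The window is wider than most peaks, so a short repeat can fall below the limit. Tandem repeats so counted made up 3.26% of the background sites, 0.407% of the other peaks and 1.07% of the whole list. They made up 0 of 434 sites outside the blocks (upper limit 0.877%, Wilson). The TA repeat in the Tgfbr1 intron lies outside the blocks and was not counted (49.5%). The chromosome 14 block at Gm21738 held 9 sites with up to 31373 RPKM, of which 3 were tandem repeats, and its commonest period was also 234 bp. The chromosome 17 block, at Gm26917, Gm42418, AY036118 and the ribosomal RNA gene CT010467.1, held 5 sites with up to 11537 RPKM.

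The chromosome 2 block of 4 sites at Gm10800 and Gm10801 alone held 24.2% of the no-DOX signal. Its highest site (98666236 to 98667334, at the Gm10800 promoter) had 722379 RPKM without DOX, 757062 with dHMG-SOX9, 673063 with WT-SOX9 and 555862 with dTA-SOX9. The same site had 225029 RPKM in the in vivo SOX9 list at D0, before induction. It was the highest background site and was present in all 14 other lists. An intronic site on chromosome 9 (35305211 to 35305594) had 190260, 202461, 178936 and 130248 RPKM in the same order of MYC-tag lists. A site in an intron near Chl1, a neural cell adhesion gene, had 158077, 169998, 131493 and 132504 RPKM. The chromosome 12 site printed above had 53839, 53032, 49248 and 35280 RPKM, and its most frequent 40-base word had 164 copies, as had the one at Gm10800. At these 4 sites the WT-SOX9 maximum was 0.832 to 0.94 times the no-DOX maximum. Only the chromosome 12 site was multi-copy by the limit of 50% (79.6% of its words). The sites at Gm10800, on chromosome 9 and near Chl1 had 49.0%, 40.6% and 49.5% multi-copy words. They are therefore not in the share of multi-copy sites given above.

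The chromosome 1 site printed above (24612647 to 24612854) had another order of values. Of its 169 words, 137 occur in the mitochondrial sequence, and its maximum was 212119 RPKM without DOX, 84008 with dHMG-SOX9, 77320 with WT-SOX9 and 310955 with dTA-SOX9. In the in vivo SOX9 lists it had 8392 RPKM at D0, 7433 at W1, 4911 at W6 and 19348 at W12, and no peak at W2. Chosen after their values were seen, another site close by had 74.4% mitochondrial words and 2834 RPKM, and a site on chromosome 2 had 29.9% and 5060 RPKM. In the Tgfbr1 intron, a TA repeat with a word found 81592 times had 3036 RPKM without DOX and 5204 with dHMG-SOX9, and was absent from all 14 other lists.

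**Figure D2:**
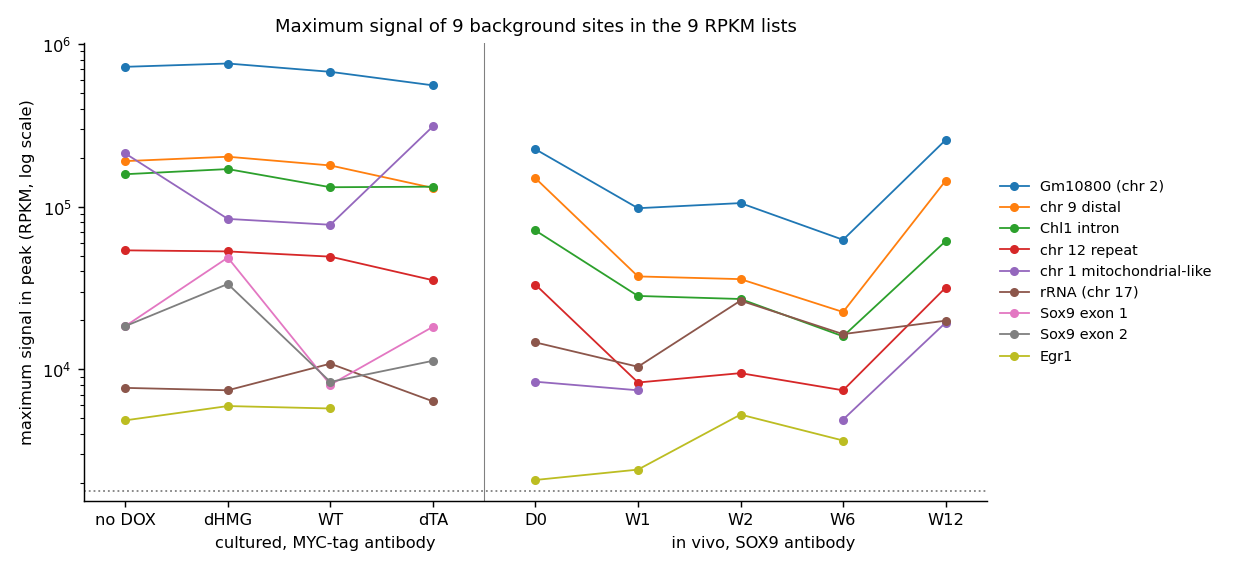
Maximum signal (RPKM, log scale) of 9 background sites in the 4 MYC-tag lists of cultured cells and the 5 in vivo SOX9 lists, with no point where a list had no peak and a dotted line at 1800 RPKM. The Gm10800 site is highest of the 9 in every list shown, with its lowest value, 62504 RPKM, at W6, whereas both Sox9 sites have points only in the cultured cells.

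The Sox9 gene itself held 3 background sites, of whose bases 99.3 to 100% were coding. The first covered 112782583 to 112783016 on chromosome 11, against a coding stretch of exon 1 from 112782585 to 112783015, so its edges were within 2 bp of those of the coding stretch. The gene itself starts at 112782224. The second, 112783811 to 112784043, began 2 bp inside coding exon 2 and ended 19 bp before its end. The intron bases between them, of which the printed borders show the first and last, were in neither peak apart from 1 base. Another site lay wholly inside coding exon 3. The edges varied between lists. The WT-SOX9 peak on exon 1 ran from the first to the last coding base, but the dHMG-SOX9 peak ran 56 bp past it, the no-DOX MLL3/4 peak 32 bp and the in vivo W1 MLL3/4 peak 92 bp, and the dTA-SOX9 peak on exon 2 ended 25 bp past that exon. Over all pooled lists, 27 peaks lay in the gene, of which 1, in vivo MLL3/4 at W1, held no coding base.

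The level of the Sox9 sites differed between the cultured cells. Exon 1 had 18419 RPKM without DOX, 48571 with dHMG-SOX9, 8044 with WT-SOX9 and 18255 with dTA-SOX9. Exon 2 had 18419, 33454, 8372 and 11281 RPKM, and exon 3 had 1822, 2478 and 2462 RPKM in the first 3 of these and no dTA-SOX9 peak. Exons 1 and 2 were therefore highest in the dHMG-SOX9 list and lowest in the WT-SOX9 list. No in vivo SOX9 list had a peak in the gene at any of the 5 time points. The MLL3/4 lists of the cultured cells had peaks on exons 1, 2 and 3 in every condition except WT-SOX9, whose list had no peak there. The cultured cells and the mice both carry a SOX9 transgene, and reads from a transgene and from the gene cannot be told apart in these lists. Small MLL3/4 peaks on exons 1 and 2 were also present in vivo at D0 and W1. A high dHMG-SOX9 value was also seen at an intronic site 30740 bp from the start of Bms1, a ribosome assembly gene, chosen after its values were seen. It had 5667 RPKM without DOX, 15116 with dHMG-SOX9, 4104 with WT-SOX9 and 3692 with dTA-SOX9, and likewise no in vivo SOX9 peak.

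The background sites were not confined to the conditions that chose them. In the WT-SOX9 MYC-tag list 226 sites had a peak (43.4%, 39.2 to 47.7), against 9.88% of the other no-DOX peaks, 17.7% of the whole list and 5.28% of the same sites moved by 10 kb (0.230% for those outside blocks). In the dTA-SOX9 list 245 had one (47.0%, 42.8 to 51.3), against 24.7% of the others and 29.9% of the whole list. The differences from the other peaks were 33.5 and 22.3 points (17.6 to 27.1 for dTA-SOX9). Neither list overlapped 174 background sites (33.4%), against 69.7% of the other peaks and 61.2% of the whole list. Both overlapped 124 (23.8%), against 4.24% of the other peaks and 8.79% of the whole list. Seen from the other lists, these sites made up 3.40% of the WT-SOX9 peaks and 2.15% of the dTA-SOX9 peaks.

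Both lists were also compared by place, the dTA-SOX9 list being the longer (11341 against 6671 peaks). Outside the blocks, 107 of 266 promoter sites had a WT-SOX9 peak (40.2%, 34.5 to 46.2) and 83 a dTA-SOX9 peak (31.2%, 25.9 to 37.0), and these intervals overlap. Of the 87 block sites 65 had a WT-SOX9 peak (74.7%, 64.7 to 82.7) and 43 a dTA-SOX9 peak (49.4%, 39.2 to 59.7). The difference between the lists was not tested. Of 168 distal sites, 54 had a WT-SOX9 peak (32.1%, 25.5 to 39.5) and 119 a dTA-SOX9 peak (70.8%, 63.6 to 77.2). The other distal no-DOX peaks likewise had fewer WT-SOX9 than dTA-SOX9 peaks, 7.64% and 31.1%, whereas at promoters 87 of 634 other peaks (13.7%) overlapped the WT-SOX9 list and the same number the dTA-SOX9 list. The differences between sites outside the blocks and these peaks were 26.5 points (20.1 to 33.0) for WT-SOX9 and 17.5 (11.5 to 23.8) for dTA-SOX9 at promoters, and 24.5 and 39.7 (31.9 to 46.6) at distal sites. At 104 background sites the dTA-SOX9 maximum was over 1.5 times the no-DOX maximum, against 16.4% of the whole list, and at 18 (3.45%) the WT-SOX9 maximum was, against 1.78%. The highest such WT-SOX9 ratio, 3.65, was at an intronic site 51905 bp from the start of Eipr1, with 2024 RPKM without DOX and 7387 with WT-SOX9. At an intergenic site 48195 bp from Resf1 the values were 3238 and 9686 RPKM. These 2 sites were chosen after their values were seen.

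Almost all background sites had an MLL3/4 peak in the same uninduced cells. The no-DOX MLL3/4 list overlapped 493 sites (94.6%, 92.3 to 96.3), against 64.3% of the other peaks, 71.4% of the whole list and 10.8% of the moved sites (2.65% outside blocks). With dHMG-SOX9 the share was 92.5% (whole list 65.3%), with dTA-SOX9 87.7% (61.7%) and with WT-SOX9 55.7% (31.6%). The WT-SOX9 list held 10543 peaks and the no-DOX list 33975, so the lower share stood beside a shorter list. Among peaks of 12 or more fragments the no-DOX MLL3/4 shares were 95.5% and 81.1%, and the difference narrowed to 14.4 points (9.78 to 18.9). Among wide peaks, which held 305 of the sites, the shares were 97.4% and 90.1%, and the difference was 7.31 points (3.81 to 10.7). In vivo, the MLL3/4 lists overlapped 86.6% of the sites at D0 (whole list 60.9%), 79.5% at W1 (52.3%) and 79.1% at W2 (52.7%).

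**Figure D3:**
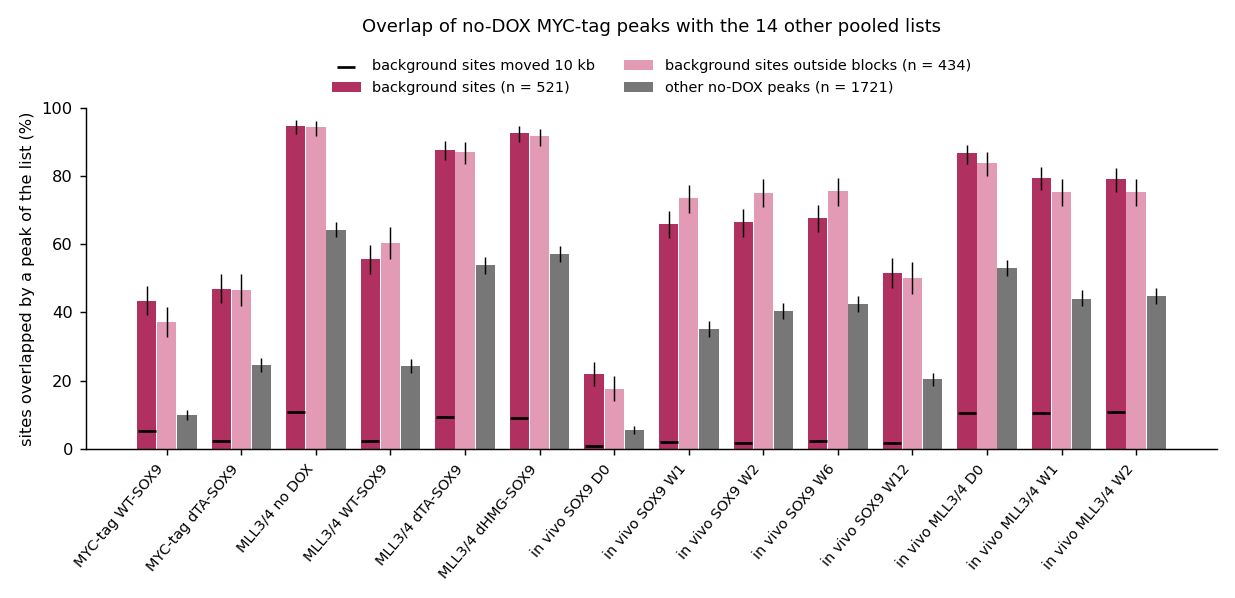
Share of peaks (%) overlapped by each of the 14 other pooled lists, for the 521 background sites, the 434 of them outside blocks and the 1721 other no-DOX peaks, with 95% Wilson intervals and a black mark for the background sites moved by 10 kb. The background sites exceed the other peaks in all 14 lists, with the smallest difference at D0 SOX9 (16.4 points).

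An antibody against SOX9 in skin also gave peaks at these sites. At D0, before the transgene was induced, 114 sites had a SOX9 peak (21.9%, 18.5 to 25.6), against 5.46% of the other no-DOX peaks, 9.28% of the whole list and 0.864% of the moved sites. The difference from the other peaks was 16.4 points (12.9 to 20.3). In turn 98 of the 792 D0 peaks (12.4%) lay on background sites. After induction the shares were 65.8% at W1 (whole list 42.2%), 66.4% at W2 (46.5%), 67.8% at W6 (48.4%) and 51.6% at W12 (27.7%). These lists held between 9745 and 20579 peaks, far more than at D0. The gap to the other no-DOX peaks changed with height in a way that differed between time points. At D0 it was larger at 12 or more fragments (20.9 points, 15.1 to 26.8) than at 9 (7.27) or at 10 or 11 (9.31), and at W12 it was 25.4, 26.8 and 26.9 points from the lowest to the highest level. At W1 it was 28.1 points among peaks of 9 fragments, 35.5 at 10 or 11 and 19.2 (11.8 to 26.3) at 12 or more, the level that held 289 of the 521 sites. At 12 or more fragments it was 10.9 points (3.54 to 18.0) at W2 and 8.55 (1.23 to 15.6) at W6. Among wide peaks it was 16.9 points (9.73 to 23.6) at W1.

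The kinds of site differed in vivo. At D0 a SOX9 peak was present at 43.7% of the sites in blocks, 27.4% of the distal sites outside blocks and 11.3% of the promoter sites. At W1 the order was reversed, with 27.6%, 56.5% and 84.2%. The other no-DOX peaks also changed order between promoter and distal, at lower shares. At D0 4.42% (3.07 to 6.31) of the other promoter peaks and 6.07% (4.80 to 7.65) of the other distal ones had a SOX9 peak. These intervals overlap, so the D0 order of the other peaks is uncertain. At W1 321 of 634 and 283 of 1087 had one, so the W1 order of promoter above distal was seen in both sets. Whether the switch was particular to the background sites was not tested. Of the promoter sites 30 of 266 had a peak at D0 and 224 at W1, against 28 (4.42%) and 321 (50.6%) of 634 other promoter peaks, and of the 87 block sites 38 and 24. At W12 the shares were 59.8%, 57.7% and 45.1%. The lists differ in length (792 peaks at D0 and 15651 at W1), and the part of length in these changes was not tested. The site near Eipr1 had 3658 RPKM at D0 and 13080 at W1, and the Gm10800 site 225029 and 97730 RPKM.

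**Figure D4:**
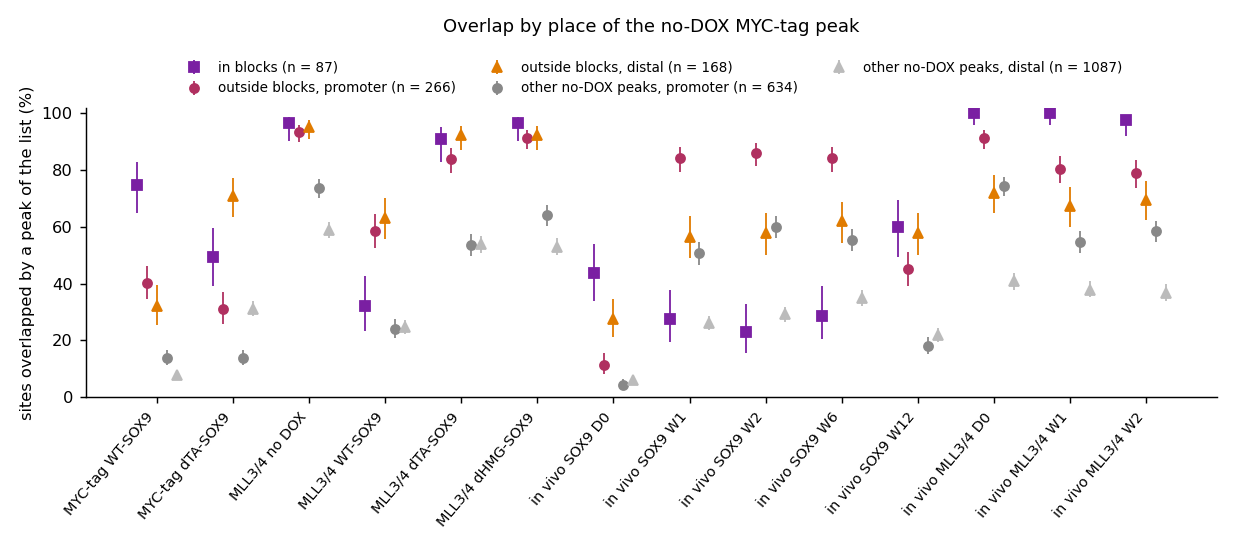
Share of peaks (%) overlapped by each of the 14 other pooled lists, with 95% Wilson intervals, for background sites in blocks (87), at promoters outside blocks (266) and distal outside blocks (168), beside other no-DOX peaks at promoters (634) and distal (1087). Block sites lead in the D0 SOX9 list at 43.7% and promoter sites in the W1 list at 84.2%.

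Few background sites held the word that SOX factors are known for. ACAATGG or ACAAAGG was within 50 bp of the maximum at 7 sites (1.34%, 0.652 to 2.75), against 3.26% of windows 1 kb away, 3.37% of the other no-DOX peaks, 2.90% of the whole list and 25.2% of the WT-SOX9-only peaks. It was found at 2.51% of windows of the same length around protein-coding transcription starts. The difference from the other no-DOX peaks was -2.03 points (-3.21 to -0.433). It was -2.98 points (-4.49 to -0.275) at distal sites, and the interval included 0 at promoters (-0.784, -2.54 to 1.48) and among peaks of 12 or more fragments (-0.235, -2.35 to 2.22), narrow peaks (-1.01, -2.83 to 4.97) and wide peaks (-0.573, -2.79 to 1.95). It did not among middle peaks (-5.08, -7.12 to -2.06) or at 10 or 11 fragments (-3.21, -4.84 to -0.0486), and at 9 fragments it did (-2.45, -4.77 to 3.28). The SOX word was at 0 of the 101 sites above 3600 RPKM, too few for this to say much at an overall share of 1.34%. One of the 7 sites, 4578 bp from the epidermal differentiation gene Krtdap and chosen after its values were seen, was present in all 14 other lists and had 2226 RPKM without DOX and 1806 with WT-SOX9.

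The E-box CACGTG of MYC was at 14 sites (2.69%, 1.61 to 4.46), against 1.44% of windows 1 kb away, 2.96% of the other no-DOX peaks and 2.90% of the whole list. The difference from the other peaks was -0.276 points (-1.69 to 1.63). At promoter sites the commonest words were GGGCGG, the GC box of SP and KLF factors (31.6%, control 4.91%), and CCAATCA or CCAATGA, the word of NFY (17.7%, control 1.42%). Around all protein-coding starts these were at 20.3% and 2.76%. The ETS word CCGGAAG was at 6.33% of promoter sites. At distal sites the commonest was TGANTCA, the AP1 word of FOS and JUN dimers (23.9%, control 2.44%). Over all sites the words stood at 20.7% (GC box; whole list 13.8%), 13.2% (NFY; 10.6%) and 12.1% (AP1; 14.8%). The GC box was 9.05 points (lower bound 5.42) and the NFY word 3.48 points (0.446 to 6.92) more frequent than in the other no-DOX peaks. Within promoter or distal sites the shares of the GC box, of NFY at promoters and of AP1 did not differ from those of the other no-DOX peaks beyond the interval (-3.10 points, -8.16 to 2.37, for NFY at promoters and 2.28, -3.62 to 8.99, for AP1 at distal sites). At distal sites the NFY word was more frequent than in the other peaks (6.34% against 3.31%, 3.03 points, 0.151 to 7.33), and so was the CRE (1.95% against 0.460%, 1.49 points, 0.153 to 4.46). Rarer words were at 4.03% (ETS; whole list 2.41%), 3.07% (RUNX, AACCACA; 2.45%) and 1.92% (CRE, TGACGTCA; 1.87%) of the sites. The YY1 word AAGATGGCG was at 0 of 521, which allows up to 0.732% (Wilson; whole list 0.178%). At protein-coding starts the shares were 1.95% for AP1, 2.51% for the E-box, 5.27% for ETS, 0.813% for CRE, 1.51% for RUNX and 1.35% for YY1. All words were searched on both strands, and no word contains another, though matches can overlap. A word is a description of the sequence and not evidence of binding.

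**Figure D5:**
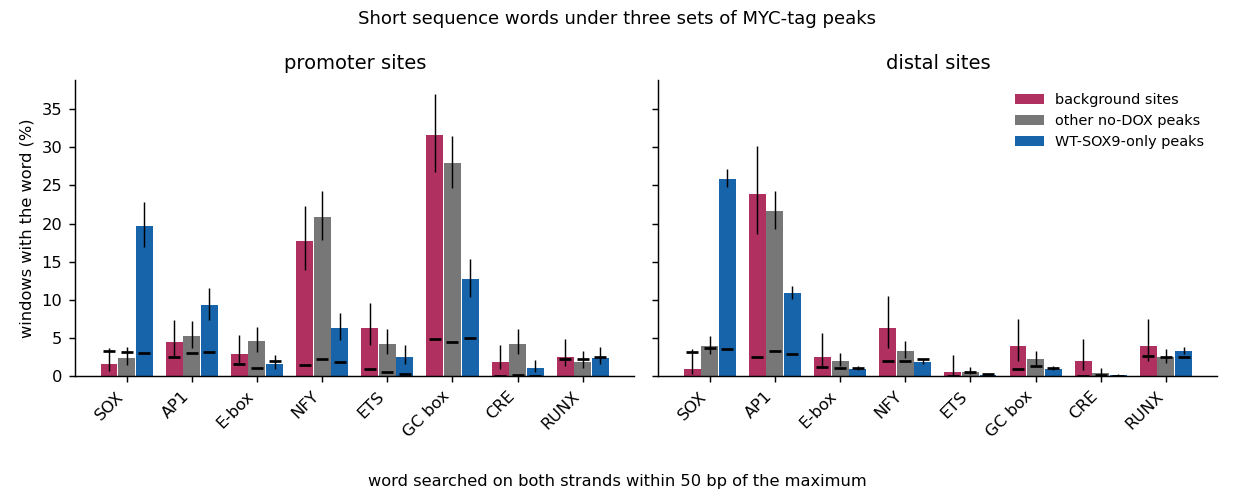
Share of windows (%) of 50 bp to each side of the maximum that hold each word on either strand, for background sites, other no-DOX peaks and WT-SOX9-only peaks at promoters (left) and distal (right), with 95% Wilson intervals and black marks for windows 1 kb away. The SOX word stands out only in the WT-SOX9-only peaks, at 25.9% of distal ones, and the AP1 word is at 23.9% of distal background sites.

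The printed windows show these words at single sites. The Hist1h2bj promoter, of a histone H2B gene that shares its start region with Hist1h2ag, holds NFY words around a CRE and had 3643 RPKM without DOX and 5452 with dHMG-SOX9. The distal sites lay in introns, 6068 bp from the start of Eif2ak3, which codes for the stress kinase PERK, 2438 bp from that of the ETS factor Elk4, and 184322 bp from that of the MAP kinase phosphatase Dusp4. Each holds the AP1 word. They had 4048, 3238 and 3238 RPKM without DOX, 1982 RPKM each with dHMG-SOX9, and 3897, 5538 and 5128 RPKM with dTA-SOX9. None of the 3 had a WT-SOX9 peak, and all 3 had in vivo SOX9 peaks at W1, W2, W6 and W12.

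Of 21992 protein-coding genes, 300 (1.36%) had a background site at a promoter and 652 (2.96%) another no-DOX peak. Among the gene lists examined, 5 of 82 histone genes had one (6.10%), namely Hist1h2ag, Hist1h2bj, Hist1h2bm, Hist2h2ac and Hist2h2be, and 3 of 85 ribosomal protein genes (3.53%; Rpl10, Rpl41 and Rps29). The 5 histone genes share 3 sites. The other no-DOX peaks were at more genes of both lists, 7 histone (8.54%) and 5 ribosomal protein genes (5.88%). The Hist1h2bm site had 9918 RPKM without DOX, 9417 with dHMG-SOX9, 10835 with WT-SOX9 and 13538 with dTA-SOX9, and 69.6% of its words were multi-copy. One gene each was found among 20 immediate early genes (Egr1), 20 keratinocyte genes (Lama3, a laminin chain of the basement membrane, 1822 RPKM) and 15 hair follicle genes (Sox9). Of 424 zinc finger genes 4 had a site (0.943%), of 3854 small noncoding genes 7 (0.182%), and of 2206 microRNA genes 8 (0.363%). The other no-DOX peaks were at 13, 16 and 8 genes of these lists. They were at 2 immediate early, 2 keratinocyte and 0 hair follicle genes. The share of 1.36% covers protein-coding genes only, so the noncoding lists have no such reference. Several of the microRNA genes share their site with the histone genes above. The counts are small, and no test was made of them.

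At the edges of the rule the sites were weak or narrowly placed. The lowest maximum, 1822 RPKM, was shared by 79 background sites (15.2%) and 485 other peaks (28.2%). Among them were the promoters of Eif5b with Txndc9 and of Coq10b, and an intronic site near Plekhm3 with 2726 RPKM for dHMG-SOX9. The smallest overlaps with a dHMG-SOX9 peak were 2 bp at Znfx1, 3 bp in the Sfi1 block and 3 bp at Isca2 with Npc2. Just outside the rule, peaks at Sfi1, near Tsc22d2 and near Tead4 lay 0, 2 and 3 bp from a dHMG-SOX9 peak, and 158 of the other no-DOX peaks (9.18%) lay within 1000 bp of one. Present in none of the 14 other lists were 7 background sites (1.34%) and 459 other peaks (26.7%), and present in all 14 were 32 (6.14%) and 16 (0.930%). The highest 2 promoter sites found in no other list were those of Eftud2 with Ccdc103 and of Tcf25, each with 2429 RPKM.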

How the data were processed

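The submitters' processing notes name Bowtie2 2.2.9, Picard, SAMtools 1.3.1 and deepTools 3.1.2, and the study's methods name SEACR as the peak caller. The deposited lists give for each peak its position on mm10, a total and a maximum. For pooled MYC-tag and in vivo SOX9 lists these are RPKM coverage, limited by the authors to a maximum above 1800, and for pooled MLL3/4 lists they are unscaled signal (coverage). The 2 lists of replicate 1 are RPKM coverage without that limit. Heights were never compared between the kinds of list.

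Lists pooled 2 samples per group, apart from 2 lists of replicate 1 alone. Of 41 samples 32 stood behind the 18 lists read, and 9 were not analysed here. Peaks on the mitochondrial sequence were left out of the pooled comparisons. Overlap was at least 1 bp, and promoters were 1 kb to either side of a GENCODE start. Copies of 40-base words were counted in 66 sequences of GRCm38. Shares have 95% Wilson and differences 95% Newcombe intervals over sites, which are not replicates. Python 3.11.15, pandas 2.3.3, numpy 2.4.6, scipy 1.17.1 and pysam 0.24.0 were used, and the overlap, interval, word and copy counts were tested on simulated data. Alternatives covered the signal limit, the overlap, the promoter width, the copy limit, merging, list length, word windows and replicate 1 alone. Named sites were the 10 highest not multi-copy, the 5 highest multi-copy, the 5 highest in no other list, the 5 highest in every cultured list and at D0, those in Sox9, 3 at each edge and up to 4 per gene list, by no-DOX maximum; others are marked where named. The members and lists were chosen with earlier results of these data known.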

Additional observations from a re-analysis of the deposited data

Results flagged for a closer look

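The no-DOX MYC-tag list of replicate 1 alone held 4 peaks on the mitochondrial sequence, with a highest maximum of 314780 RPKM. This sequence is outside the comparisons of the report, and no pooled MYC-tag list held a peak on it. It stands beside the chromosome 1 background site that shares most of its words with the mitochondrial sequence, which had 169649 RPKM in the same replicate.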

How the results depend on the processing

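Across the alternatives, 68 values stayed within the 95% interval of the main value (for the number of sites, within 1.5 times) and 27 moved. With the signal limit at 3600 RPKM, 101 sites remained in the set, of which 27.7% were multi-copy, 84.2% overlapped a WT-SOX9 peak, 63.4% a dTA-SOX9 peak, 98.0% a no-DOX MLL3/4 peak, 55.4% a D0 SOX9 peak, 58.4% a W1 SOX9 peak and 95% an in vivo D0 MLL3/4 peak, while the E-box and SOX words were at 0. With each compared list limited to its 2000 peaks of highest total signal, the overlaps fell to 18.2% (WT-SOX9), 19.0% (dTA-SOX9), 34.4% (no-DOX MLL3/4), 10.4% (W1 SOX9) and 30.1% (in vivo D0 MLL3/4). Without the blocks, a setting chosen after seeing the data, the values were 4.61% multi-copy, 37.1% WT-SOX9, 17.5% D0 SOX9 and 73.5% W1 SOX9. With only sites under 50% multi-copy words, the no-DOX MLL3/4 overlap was 96.3% and the W1 SOX9 overlap 73.2%, and merging peaks within 500 bp gave 70.1% for W1 SOX9. A promoter of 2.5 kb gave 68.7%, a limit of 90% gave 2.69% multi-copy sites, and words within 100 bp gave 5.95% for the E-box and 3.26% for SOX. From replicate 1 alone 523 sites were found, with an in vivo D0 MLL3/4 overlap of 89.3%; the other values without replicate 2 stayed within the interval. Moving the sites by 50 kb in place of 10 kb lowered the local background to 1.15% (WT-SOX9), 0.672% (dTA-SOX9), 4.51% (no-DOX MLL3/4) and 4.41% (in vivo D0 MLL3/4). The lists carry no depth beyond the step of coverage, and sites resting on 9 fragments are the least certain. No paired analysis was possible because the lists compared pool their replicates, although the labels number these 1 and 2 in each group, and only replicate 1 of the no-DOX cells has a list of its own.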
